A study of Homo sapiens with 3 samples.

Results

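The heat shock proteins and chaperones described here are the genes of the HSPA, HSPB, HSPD, HSPE, HSPH and HSP90 families, the J protein families DNAJA, DNAJB and DNAJC, the CCT chaperonin subunits with TCP1, BAG1 to BAG6 and HSF1. They were taken by a rule on gene symbols from the tables of 3 cultures profiled by single-cell RNA sequencing. The rule was set with earlier results of these data known. Of 18692 symbols listed for any culture, 84 were members, 83 of them listed for mdR-H460, 83 for ldR-H460 and 82 for H460. A member was measured where it reached 1 CPM (UMIs of the gene in 1000000 UMIs of the library) in at least 1 culture, which left 76 members among 12261 measured genes, and the other 8 (CCT6B, DNAJB13, DNAJB5, DNAJB7, DNAJC28, HSPA12B, HSPA1L, HSPB9) were below that level everywhere. H460 is an established line from a human large-cell lung carcinoma. The labels call mdR-H460 the mid-term and ldR-H460 the long-term form of a dR-H460 line, and the growth protocol describes reprogramming of cancer cells on irradiated human fibroblasts and in medium conditioned by them. The labels give no number of cultures or clones behind a library. No time was assigned to either form, because the codes in the sample descriptions are not explained in the sources used here. The series title concerns multi-drug resistance in reprogrammed cancer cells, and the cultures were compared to see how the derivatives differ from their parental line. Each culture gave 1 library, so no difference has a replicate check and no test was possible. Ranges in brackets after a fold are 95% intervals for counting error only.

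Chaperones bind unfolded or newly made proteins and help them fold or reach the proteolytic machinery. HSP70 proteins work in cycles of ATP hydrolysis that J proteins start and that nucleotide exchange factors of the HSP110 and BAG families end, HSP90 proteins finish the folding of kinases, receptors and other clients, and the ring-shaped TRiC/CCT complex folds actin and tubulin. Cytosol, endoplasmic reticulum (ER) and mitochondria have their own sets. HSF1 switches on the inducible cytosolic genes when unfolded proteins build up, while ER chaperone genes answer to the unfolded protein response, one arm of which runs through ATF4 to DDIT3, the stress transcription factor also called CHOP. Tumour cells often rely on high chaperone levels.

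The libraries held 5151 cells of mdR-H460 and 4956 of ldR-H460, against 4531 of H460, with 60468481 to 66624830 UMIs per library and medians of 11736 and 12342.5 UMIs per cell in the derivatives and 14685 in H460. Between 24 and 36 cell barcodes were shared by any pair of libraries. KRT8 and KRT18, keratins of epithelial tumours, were detected at 459 CPM or more in each culture, whereas EPCAM, which most carcinomas express, was at 0.347 CPM or less. Of 9 fibroblast markers, 5 were at 0 in mdR-H460, 5 in ldR-H460 and 4 in H460, and together they summed to 3.06 and 4.68 CPM in the derivatives, against 11.1 CPM in H460, with THY1, FAP and POSTN at 0 in each. Their part in the results was not tested. Cells with 10 or more DDIT3 UMIs per 10000 UMIs, called DDIT3-high below, numbered 120 in mdR-H460 (2.33% of its cells), 0 in ldR-H460 and 42 in H460 (0.927%). In ldR-H460 the highest cell reached 5.11 DDIT3 UMIs per 10000. The DDIT3-high cells were shallower than the rest, with medians of 6624 against 11968 UMIs in mdR-H460 and 9059 against 14726 UMIs in H460, and a given number of DDIT3 UMIs weighs more in a shallow cell. Of these cells, 24 in mdR-H460 and 7 in H460 had under 1000 UMIs. In 13 of those of mdR-H460 and 4 of those of H460 the call rests on 1 DDIT3 UMI. The DDIT3-high cells had less mitochondrially encoded RNA than the other cells, 3.71% against 5.23% of UMIs in mdR-H460 and 2.93% against 4.82% in H460.

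Taken as one set, chaperone genes made up a larger part of the transcripts in mdR-H460 than in the other cultures. The 84 members summed to 14987 CPM in mdR-H460 and 12159 CPM in ldR-H460, against 12615 CPM in H460. The sum without the DDIT3-high cells was 14823 CPM in mdR-H460 and 12491 CPM in H460, and ldR-H460 had no such cells to leave out. Such sums weigh abundant genes most. The inducible cytosolic members summed to 4068 CPM in mdR-H460 and 2867 CPM in H460, most of it from HSP90AA1. The mitochondrial, TRiC/CCT and constitutive cytosolic sums were also higher in mdR-H460. The sums of ER members, BAG members without BAG3 and the remaining J proteins were lower there than in H460. Gene by gene, few members differed. In mdR-H460 against H460, 4 of 76 members were at least 1.5-fold higher, with 6.66% of all measured genes past the same line, and 6 were at least 1.5-fold lower, with 22.2% of all genes. In ldR-H460 against H460, 1 member was higher (all genes 11.6%) and 12 were lower (all genes 22.1%). Between the derivatives, ldR-H460 had 4 members higher than mdR-H460 (all genes 14.8%) and 8 lower (all genes 11.2%). With library totals, the share of members that were higher or lower was below that of all genes in both comparisons with H460. For the 4 higher members in mdR-H460 it was close to the 6.66% of all genes. More members were higher there with TMM or DESeq2 scaling, for which no share of all genes is given here. The 3 comparisons share libraries with one another and are not independent.

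The median log2 ratio of the members was -0.01 in mdR-H460 over H460 (all genes -0.16), -0.17 in ldR-H460 over H460 (all genes -0.13) and -0.17 in ldR-H460 over mdR-H460 (all genes 0.07). Scaling by TMM factors in place of library totals adds 0.18 to every log2 ratio of mdR-H460 over H460 and 0.12 to those of ldR-H460 over H460. At 2-fold, members numbered 2 higher and 1 lower in mdR-H460 over H460 (all genes 3.25% and 10.0%), 1 higher and 2 lower in ldR-H460 over H460 (all genes 5.46% and 11.0%), and 1 higher and 3 lower in ldR-H460 over mdR-H460 (all genes 5.40% and 4.95%). With the DDIT3-high cells left out, the counts at 1.5-fold were 3 higher and 8 lower in mdR-H460 over H460 (all genes 6.43% and 22.9%), 1 higher and 11 lower in ldR-H460 over H460 (all genes 11.8% and 21.7%), and 4 higher and 6 lower in ldR-H460 over mdR-H460 (all genes 15.3% and 10.3%). Of the calls made with all cells, HSPBAP1 in mdR-H460 over H460, HSPA1B in ldR-H460 over H460, and HSPA1A and HSPBAP1 in ldR-H460 over mdR-H460 were lost without these cells, and DNAJC22 and HSPA1B became lower in mdR-H460 over H460.

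**Figure D1:**
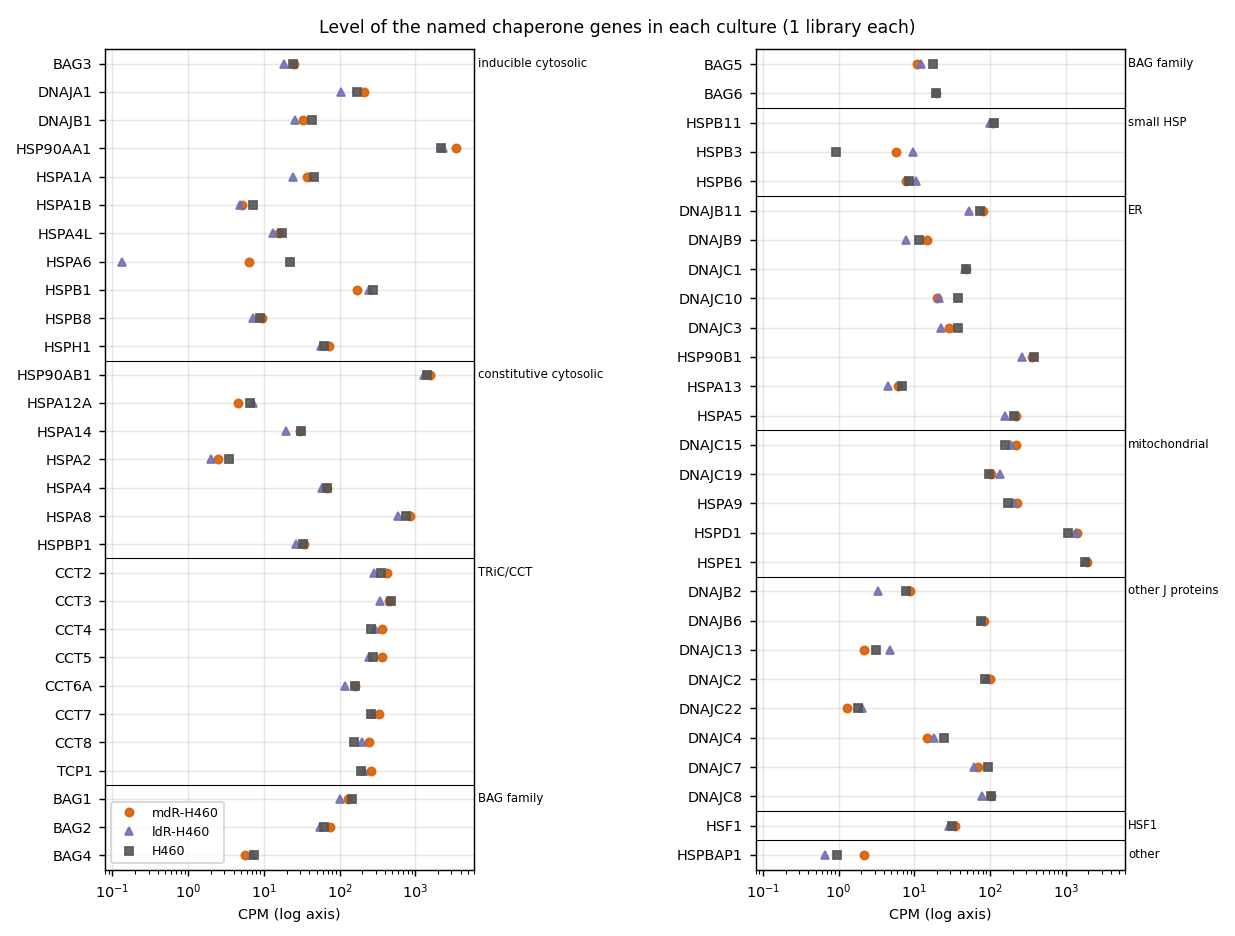
Levels of 57 named members in the 3 cultures, as CPM on a log axis, grouped by class; each point is 1 library. Points of a gene lie close together for most members, and the widest gaps are those of HSPA6 (6.36, 0.132 and 22.03 CPM in mdR-H460, ldR-H460 and H460) and HSPB3 (5.66, 9.56 and 0.922 CPM).

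The start regions of some members, inducible and other, hold the letters that HSF1 is known to bind, units of GAA and TTC in turn. RefSeq start regions (GRCh38.p14, 250 bases before to 50 after each start) were matched for 75 of the 84 members, with 98 start sites. A 3-unit heat shock element (GAANNTTC followed after 2 bases by GAA, or its reverse complement) was found in 7 of these 98 windows, which is 7.14%, against 0.490% of 35116 windows of all genes. The 7 genes were DNAJA1, DNAJB6, HSP90AA1, HSP90AB1, HSPA6, HSPA8 and HSPD1. Of these, only DNAJA1, HSP90AA1 and HSPA6 are in the inducible cytosolic class. A 2-unit element (GAANNTTC or TTCNNGAA), which every 3-unit element contains, was in 27.6% of member windows and 13.5% of all windows. Of the inducible class, HSPA1A, HSPA1B, HSPA1L, HSPA4L, DNAJB1, DNAJB4, HSPB1 and HSPB8 had only the 2-unit element, in at least 1 window. HSPH1 and BAG3 had neither. The ER stress element (CCAAT and CCACG 9 bases apart) was in 2 member windows, of HSPA5 and HSP90B1, against 0.0769% of all windows, and TGATGNAA, the letters of the composite ATF4 and CHOP element, was in 1 member window, against 3.62% of all windows. CCAAT alone was in 36.7% of member windows and 34.6% of all windows. Each motif was searched on both strands, and a match describes letters, not binding. Stretches of 60 bases are shown for members whose values the results turn on, 5′ to 3′ on the gene's strand, with the matched units in capitals.
HSPA6 chr1:161524442-161524501 (plus strand): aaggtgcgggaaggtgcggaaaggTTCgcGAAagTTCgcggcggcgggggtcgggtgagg
HSP90AA1 chr14:102087097-102087156 (minus strand): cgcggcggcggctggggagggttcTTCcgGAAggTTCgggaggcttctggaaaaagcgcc
HSPA8 chr11:123062156-123062215 (minus strand): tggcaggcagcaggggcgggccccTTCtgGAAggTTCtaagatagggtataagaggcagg
DNAJB6 chr7:157336849-157336908 (plus strand): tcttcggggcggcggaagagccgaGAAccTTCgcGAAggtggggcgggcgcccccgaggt
HSPA1A chr6:31815411-31815470 (plus strand): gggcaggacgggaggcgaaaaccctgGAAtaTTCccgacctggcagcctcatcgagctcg
HSPA1B chr6:31827607-31827666 (plus strand): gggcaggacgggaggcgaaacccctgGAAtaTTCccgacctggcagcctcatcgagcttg
HSPA5 chr9:125241371-125241430 (minus strand): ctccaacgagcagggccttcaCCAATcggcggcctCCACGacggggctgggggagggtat
HSP90B1 chr12:103930300-103930359 (plus strand): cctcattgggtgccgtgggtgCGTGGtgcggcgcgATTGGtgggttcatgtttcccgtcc

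The first 4 stretches hold 3-unit elements, those of HSPA1A and HSPA1B a 2-unit element, and those of HSPA5 and HSP90B1 the ER stress element. The HSPA1A and HSPA1B stretches differ at 2 of 60 positions. The transcripts of this pair are 88.2% identical over their length and 46.5% over their last 300 bases, where HSPA1A and HSPA6 are 50.0% identical. How the authors' counting assigned reads of the pair was not tested. HSPA7, a near copy of HSPA6, is not analysed here.

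The inducible cytosolic members are the genes that HSF1 turns on. Of 12 measured, 1 was higher and 2 lower in mdR-H460 against H460 (median log2 ratio -0.07), and 0 were higher and 5 lower in ldR-H460 against H460 (all genes 22.1% lower). Of all genes, 6.66% were higher and 22.2% lower in mdR-H460, and 11.6% were higher in ldR-H460. The class median in ldR-H460 over H460 was -0.37, or -0.32 without the DDIT3-high cells (all genes -0.13). Of the 5, DNAJA1 and HSPA1B were not kept with TMM or DESeq2 scaling. HSPA6, an HSP70 that is nearly silent in unstressed cells (chromosome 1, 161524540 to 161526910 on GRCh38, the build of all gene positions here), had 6.36 CPM in mdR-H460 and 0.132 CPM in ldR-H460, against 22.03 CPM in H460. These levels rest on 424, 8 and 1458 UMIs. HSPA6 was 3.46-fold (3.10 to 3.87) lower in mdR-H460 than in H460, and without the DDIT3-high cells it was 2.90-fold (2.40 to 3.53) lower. In ldR-H460 it was 48.1-fold (24.2 to 112) lower than in mdR-H460, or 16.9-fold (8.35 to 39.9) lower without those cells. The order of the cultures for HSPA6 was thus the same with and without them. Its log2 ratio in ldR-H460 over mdR-H460 was -6.85 among cells called G1, DDIT3-high ones included, against -5.59 over all cells. Without the DDIT3-high cells the counts were far smaller (147 UMIs in mdR-H460 and 427 in H460).

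HSPA1A and HSPA1B, the major stress-inducible HSP70 genes, had the same order of cultures with all cells counted. HSPA1A (chromosome 6, 31815464 to 31817946) had 37.6 CPM in mdR-H460 and 23.9 CPM in ldR-H460, against 45.8 CPM in H460. In ldR-H460 it was 1.91-fold (1.79 to 2.04) lower than in H460 and 1.57-fold (1.47 to 1.67) lower than in mdR-H460. Without the DDIT3-high cells, mdR-H460 had 25.2 CPM, ldR-H460 23.9 CPM and H460 37.8 CPM. The derivatives then lay within 1.05-fold of each other, and both stayed below H460. Among cells called G1, DDIT3-high ones included, the log2 ratio was -2.09 in ldR-H460 over H460 and 0.10 in mdR-H460 over H460. In that case mdR-H460 was slightly above H460. The HSPA1B log2 ratio of -0.60 in ldR-H460 over H460 was -1.27 in those cells. HSPA1B (chromosome 6, 31827735 to 31830255) had 5.21 CPM in mdR-H460 and 4.78 CPM in ldR-H460, against 7.24 CPM in H460, and was 1.51-fold (1.31 to 1.76) lower in ldR-H460 than in H460, a call not kept with TMM scaling, DESeq2 scaling, totals without mitochondrial and ribosomal protein UMIs, cells under 4000 detected genes or the DDIT3-high cells left out. Without those cells it had 4.09 CPM in mdR-H460 and 4.78 CPM in ldR-H460, against 6.44 CPM in H460, so mdR-H460 was then the lowest culture. DNAJB1, the main J protein partner of the inducible HSP70s (chromosome 19, 14514770 to 14529770), had 33.1 CPM in mdR-H460 and 25.9 CPM in ldR-H460, against 42.8 CPM in H460, and was 1.65-fold (1.55 to 1.76) lower in ldR-H460 than in H460, or 1.54-fold (1.44 to 1.64) lower without the DDIT3-high cells.

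DNAJA1, a farnesylated J protein of the cytosol (chromosome 9, 33025211 to 33039907), went opposite ways in the derivatives. It had 209 CPM in mdR-H460 and 106 CPM in ldR-H460, against 168 CPM in H460. That made it 1.24-fold (1.21 to 1.28) higher in mdR-H460 and 1.59-fold (1.54 to 1.64) lower in ldR-H460 than in H460, and 1.97-fold (1.92 to 2.03) lower in ldR-H460 than in mdR-H460. The call against H460 in ldR-H460 was not kept with TMM scaling or DESeq2 scaling. HSP90AA1, the inducible cytosolic HSP90 (chromosome 14, 102080738 to 102139699), had 3481 CPM in mdR-H460 and 2356 CPM in ldR-H460, against 2188 CPM in H460, and was 1.59-fold (1.58 to 1.602) higher in mdR-H460 than in H460. It did not reach 1.5-fold with each cell weighted alike or cells called G1 alone (log2 ratio 0.42 in G1 cells at full depth). Leaving out the DDIT3-high cells gave 1.596-fold (1.59 to 1.61) higher.

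HSPB1, the small heat shock protein HSP27 (chromosome 7, 76302544 to 76304295), was the other inducible member that differed in mdR-H460, with 168 CPM in mdR-H460 and 242 CPM in ldR-H460, against 274 CPM in H460. It was 1.63-fold (1.59 to 1.67) lower in mdR-H460 than in H460 and 1.13-fold (1.11 to 1.16) lower in ldR-H460 than in H460. Its ratio in mdR-H460 did not reach 1.5-fold with TMM scaling, DESeq2 scaling, each cell weighted alike or cells called G1 alone. The remaining inducible members lay within 1.5-fold in both comparisons with H460. HSPH1, an HSP110 exchange factor, had 72.2 CPM in mdR-H460 and 56.6 CPM in ldR-H460, against 62.9 CPM in H460. BAG3, which links HSP70 to selective autophagy, had 24.8 CPM in mdR-H460 and 18.6 CPM in ldR-H460, against 24.1 CPM in H460. HSPB8, its small heat shock protein partner, was at 7.26 to 9.43 CPM, DNAJB4 at 5.59 to 6.15 CPM and HSPA4L at 13.4 to 17.3 CPM. HSPA1L was below 1 CPM in each culture.

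Of 7 measured constitutive cytosolic members, 0 were higher and 0 lower in mdR-H460 against H460 (median log2 ratio 0.00), and 0 were higher and 2 lower in ldR-H460 against H460 (median -0.31, all genes -0.13; all genes 22.1% lower). Both of these calls were lost under some alternatives. HSPA8, the housekeeping HSP70 also called HSC70 (chromosome 11, 123057489 to 123063230), had 859 CPM in mdR-H460 and 597 CPM in ldR-H460, against 759 CPM in H460, and was 1.44-fold (1.42 to 1.46) lower in ldR-H460 than in mdR-H460. HSP90AB1, the constitutive HSP90 (chromosome 6, 44246166 to 44253888), had 1546 CPM in mdR-H460 and 1323 CPM in ldR-H460, against 1417 CPM in H460, a spread within 1.17-fold between the derivatives. HSPA4, an HSP110 exchange factor, had 68.7 CPM in mdR-H460 and 58.6 CPM in ldR-H460, against 68.8 CPM in H460. The members that were lower in ldR-H460 were HSPA14 and HSPA2. HSPA14, the HSP70 of the ribosome-associated complex, had 30.3 CPM in mdR-H460 and 19.9 CPM in ldR-H460, against 31.3 CPM in H460, and was 1.57-fold (1.47 to 1.69) lower in ldR-H460 than in H460, a call not kept with TMM scaling, DESeq2 scaling, cells under 4000 detected genes or cells called G1 alone. It was also 1.52-fold (1.42 to 1.64) lower in ldR-H460 than in mdR-H460, a call not kept with totals without mitochondrial and ribosomal protein UMIs, each cell weighted alike, cells thinned to 5000 UMIs, cells under 4000 detected genes or cells called G1 alone. HSPA2, best known from spermatogenesis, had 2.49 CPM in mdR-H460 and 1.98 CPM in ldR-H460, against 3.505 CPM in H460, and was 1.77-fold (1.41 to 2.22) lower in ldR-H460 than in H460, a call not kept with each cell weighted alike or cells called G1 alone. HSPA12A, a distant HSP70 relative, was 1.55-fold (1.34 to 1.80) higher in ldR-H460 than in mdR-H460 at 7.18 CPM in ldR-H460 against 4.62 CPM in mdR-H460, a call not kept with TMM scaling, DESeq2 scaling or cells thinned to 5000 UMIs. HSPBP1, a nucleotide exchange factor of HSP70, lay between 26.8 and 34.4 CPM, and HSPA12B had 2 UMIs in mdR-H460 and 0 in ldR-H460, against 3 in H460.

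The TRiC/CCT subunits, which form 1 ring complex in equal numbers, did not move by the same factor. Of 8 measured subunits, 1 was at least 1.5-fold higher and 0 lower in mdR-H460 against H460 (median log2 ratio 0.36, all genes -0.16), and 0 were higher or lower in ldR-H460 against H460 (median -0.07). Of all genes, 6.66% were higher and 22.2% lower in mdR-H460, and 11.6% and 22.1% in ldR-H460. CCT8 (chromosome 21, 29055805 to 29073797) was the one past the line, with 247 CPM in mdR-H460 and 196 CPM in ldR-H460, against 158 CPM in H460, 1.56-fold (1.53 to 1.603) higher in mdR-H460 than in H460. It did not reach 1.5-fold with cells called G1 alone (log2 ratio 0.41 at full depth). CCT4 had 365 CPM in mdR-H460 and 294 CPM in ldR-H460, against 261 CPM in H460. CCT3 had 444 CPM in mdR-H460 and 343 CPM in ldR-H460, against 484 CPM in H460, below H460 in both derivatives with library totals, though TMM scaling puts its mdR-H460 level above H460. CCT6A was level between mdR-H460 and H460, with 158 CPM in mdR-H460 and 119 CPM in ldR-H460, against 159.6 CPM in H460. The subunit ratios thus ran from 0.918 to 1.56 in mdR-H460 over H460 and from 0.709 to 1.24 in ldR-H460 over H460. In ldR-H460 over mdR-H460 every measured subunit was lower, at ratios of 0.674 to 0.822, none past 1.5-fold. CCT2 had 422 CPM in mdR-H460 and 285 CPM in ldR-H460, against 349 CPM in H460, CCT5 366 CPM in mdR-H460 and 249 CPM in ldR-H460, against 281 CPM in H460. TCP1 had 257 CPM in mdR-H460 and 212 CPM in ldR-H460, against 191 CPM in H460, and CCT7 329 CPM in mdR-H460 and 267 CPM in ldR-H460, against 262 CPM in H460. CCT6B, a testis form, was below 1 CPM in each culture.

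**Figure D2:**
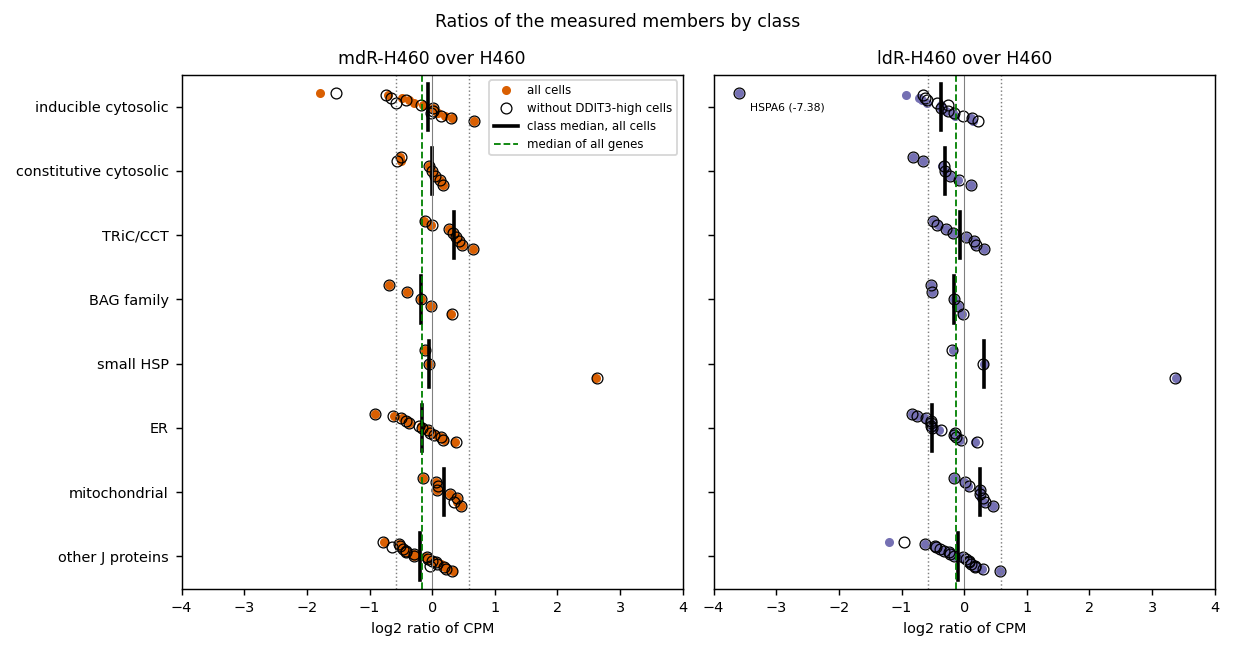
Log2 CPM ratios of the measured members over H460, by class, in mdR-H460 (left) and ldR-H460 (right); filled points use all cells, open circles leave out the DDIT3-high cells, thick bars are class medians, the dashed line is the median of all genes and dotted lines mark 1.5-fold. HSPA6 in ldR-H460 (log2 ratio -7.38) is drawn at the left limit, and HSPB3 stands alone on the right in both panels.

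Among the other small heat shock proteins, HSPB3 was higher in both derivatives. HSPB3 (chromosome 5, 54455601 to 54456384), whose protein forms oligomers with HSPB2 in muscle, had 5.66 CPM in mdR-H460 and 9.56 CPM in ldR-H460, against 0.922 CPM in H460, on 377, 578 and 61 UMIs. It was 6.14-fold (4.67 to 8.19) higher in mdR-H460 and 10.4-fold (7.96 to 13.7) higher in ldR-H460 than in H460, and 1.69-fold (1.48 to 1.93) higher in ldR-H460 than in mdR-H460. With each cell weighted alike, the log2 ratios of 2.62 in mdR-H460 and 3.37 in ldR-H460 over H460 became 1.33 and 2.48. Its UMIs were found in 284 cells of mdR-H460 and 431 of ldR-H460, against 56 of H460. After every cell was thinned to 5000 UMIs the share of cells with an HSPB3 UMI was 2.35% (1.89 to 2.87%) in mdR-H460 and 4.31% (3.74 to 4.95%) in ldR-H460, against 0.623% (0.400 to 0.926%) in H460. Unthinned shares were 5.51% in mdR-H460 and 8.70% in ldR-H460, against 1.24% in H460. No cell type that lacks the gene was at hand to measure free RNA. HSPB11, a component of the ciliary transport machinery, had 109 CPM in mdR-H460 and 99.5 CPM in ldR-H460, against 113 CPM in H460, and HSPB6 had 7.77 CPM in mdR-H460 and 10.5 CPM in ldR-H460, against 8.45 CPM in H460, both within 1.5-fold.

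In the BAG family, BAG5 was the only member past 1.5-fold against H460. BAG5, which binds HSP70 through several BAG domains, had 10.8 CPM in mdR-H460 and 12.2 CPM in ldR-H460, against 17.4 CPM in H460, and was 1.62-fold (1.47 to 1.78) lower in mdR-H460. It was not past 1.5-fold with TMM scaling, DESeq2 scaling or each cell weighted alike. BAG1, a nucleotide exchange factor that also binds the proteasome, had 129 CPM in mdR-H460 and 101 CPM in ldR-H460, against 146 CPM in H460. BAG2, an inhibitor of the ubiquitin ligase CHIP, had 75.9 CPM in mdR-H460 and 55.0 CPM in ldR-H460, against 61.5 CPM in H460. BAG4 and BAG6 lay at 5.58 to 7.39 CPM and 19.2 to 19.6 CPM over the 3 cultures. HSF1 itself differed little, with 34.4 CPM in mdR-H460 and 29.1 CPM in ldR-H460, against 31.3 CPM in H460.

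Of 13 measured ER members, 0 were at least 1.5-fold higher and 2 lower in mdR-H460 against H460 (median log2 ratio -0.16), and 0 were higher and 3 lower in ldR-H460 against H460 (median -0.51, all genes -0.13). The 3 of 13 are close to the share of all genes that were lower, 22.1%. In mdR-H460, 22.2% of all genes were lower. HSPA5, the ER HSP70 known as BiP or GRP78 (chromosome 9, 125234853 to 125241330), had 219.9 CPM in mdR-H460 and 158 CPM in ldR-H460, against 209.8 CPM in H460, 1.33-fold (1.29 to 1.36) lower in ldR-H460 than in H460. HSP90B1, the ER HSP90 known as GRP94 (chromosome 12, 103930107 to 103953645), had 363 CPM in mdR-H460 and 262 CPM in ldR-H460, against 379.8 CPM in H460, 1.45-fold (1.42 to 1.48) lower in ldR-H460 than in H460. Neither reached 1.5-fold. DNAJC10, an ER J protein that reduces disulfide bonds (chromosome 2, 182716041 to 182794464), was lower in both derivatives, with 20.2 CPM in mdR-H460 and 21.5 CPM in ldR-H460, against 38.1 CPM in H460, 1.89-fold (1.77 to 2.02) lower in mdR-H460 and 1.77-fold (1.66 to 1.90) lower in ldR-H460. DNAJC3, a BiP partner and inhibitor of the kinase PERK, had 28.95 CPM in mdR-H460 and 22.4 CPM in ldR-H460, against 37.6 CPM in H460, 1.68-fold (1.57 to 1.80) lower in ldR-H460 than in H460. HSPA13, a microsomal HSP70 relative, had 6.18 CPM in mdR-H460 and 4.51 CPM in ldR-H460, against 6.98 CPM in H460, and was 1.55-fold (1.33 to 1.80) lower in ldR-H460 than in H460, a call not kept with TMM scaling, DESeq2 scaling or totals without mitochondrial and ribosomal protein UMIs.

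DNAJB9 and DNAJB11, ER J proteins that bind BiP, set the derivatives apart. DNAJB9 had 14.8 CPM in mdR-H460 and 7.74 CPM in ldR-H460, against 11.5 CPM in H460. It was 1.28-fold (1.17 to 1.41) higher in mdR-H460 and 1.49-fold (1.33 to 1.68) lower in ldR-H460 than in H460, and 1.91-fold (1.71 to 2.14) lower in ldR-H460 than in mdR-H460. Among thinned G1 cells the DNAJB9 ratio of ldR-H460 over H460 was 1.03 (0.732 to 1.44). DNAJB11 had 82.1 CPM in mdR-H460 and 52.6 CPM in ldR-H460, against 74.8 CPM in H460, and was 1.56-fold (1.49 to 1.63) lower in ldR-H460 than in mdR-H460. DNAJB14, named because it passed the line, was lower in mdR-H460, at 10.0 against 15.4 CPM in H460, 1.53-fold (1.39 to 1.69) lower, a call not kept with TMM scaling, DESeq2 scaling or each cell weighted alike. The other ER members, DNAJB12, DNAJC1, DNAJC16, DNAJC18 and DNAJC25, lay within 1.5-fold of H460 in both derivatives.

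Mitochondrial members stayed within 1.5-fold of H460. Of 8 measured, 0 were at least 1.5-fold higher or lower in either derivative against H460, with median log2 ratios of 0.18 in mdR-H460 (all genes -0.16) and 0.26 in ldR-H460 (all genes -0.13). HSPD1, the matrix chaperonin HSP60 (chromosome 2, 197486581 to 197516737), had 1434 CPM in mdR-H460 and 1363 CPM in ldR-H460, against 1089 CPM in H460, 1.32-fold (1.30 to 1.33) higher in mdR-H460 and 1.25-fold (1.24 to 1.26) higher in ldR-H460 than in H460. HSPE1, its lid HSP10 (chromosome 2, 197499994 to 197503457), had 1890.1 CPM in mdR-H460 and 1788 CPM in ldR-H460, against 1785 CPM in H460. The pair lies head to head on chromosome 2, with RefSeq starts 105 and 539 bases apart for the HSPD1 starts at 197500274 and 197499840. HSPE1 was 1.06-fold (1.05 to 1.07) higher in mdR-H460 than in H460, an interval that did not overlap that of HSPD1. HSPA9, the matrix HSP70 mortalin that also drives protein import (chromosome 5, 138553756 to 138575724), had 231 CPM in mdR-H460 and 210.2 CPM in ldR-H460, against 175 CPM in H460, 1.32-fold (1.29 to 1.35) higher in mdR-H460 and 1.198-fold (1.17 to 1.23) higher in ldR-H460. DNAJC15 and DNAJC19, J proteins of the import motor, had 221 CPM in mdR-H460 and 191 CPM in ldR-H460, against 159.8 CPM in H460, and 102 CPM in mdR-H460 and 134 CPM in ldR-H460, against 96.9 CPM in H460. DNAJC15 thus had its highest level in mdR-H460 and DNAJC19 in ldR-H460. DNAJA3, DNAJC11 and DNAJC30 lay within 1.5-fold, and DNAJC28 was below 1 CPM.

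Of 18 measured J proteins outside these compartments, 0 were higher and 1 lower in mdR-H460 against H460 (all genes 6.66% and 22.2%). In ldR-H460 against H460, 0 were higher and 2 lower (all genes 11.6% and 22.1%). DNAJC4 was the one in mdR-H460, with 14.6 CPM in mdR-H460 and 18.3 CPM in ldR-H460, against 25.0 CPM in H460, 1.71-fold (1.58 to 1.86) lower, a call not kept with cells thinned to 5000 UMIs or cells called G1 alone. In G1 cells the DNAJC4 log2 ratio was -0.44 at full depth, and after thinning the ratio was 0.986 (0.802 to 1.21), an interval that includes 1. In ldR-H460 they were DNAJB2 and DNAJC7. DNAJB2, a ubiquitin-binding J protein (chromosome 2, 219279267 to 219286900), had 8.68 CPM in mdR-H460 and 3.34 CPM in ldR-H460, against 7.69 CPM in H460. It was 2.30-fold (1.95 to 2.72) lower in ldR-H460 than in H460, or 1.94-fold (1.64 to 2.30) lower without the DDIT3-high cells. It was 2.60-fold (2.21 to 3.06) lower in ldR-H460 than in mdR-H460, and the log2 ratio of -1.38 became -2.13 among cells called G1, DDIT3-high ones included. In thinned G1 cells DNAJB2 had 24.3 CPM in mdR-H460 and 7.18 CPM in ldR-H460. Without the DDIT3-high cells the G1 level in mdR-H460 was 12.4 CPM. DNAJC7, a co-chaperone that binds both HSP70 and HSP90, had 68.9 CPM in mdR-H460 and 61.3 CPM in ldR-H460, against 95.1 CPM in H460, 1.55-fold (1.49 to 1.62) lower in ldR-H460, a call not kept with TMM scaling, DESeq2 scaling, totals without mitochondrial and ribosomal protein UMIs or cells under 4000 detected genes. DNAJC13, known from endosome traffic, went opposite ways, with 2.19 CPM in mdR-H460 and 4.71 CPM in ldR-H460, against 3.16 CPM in H460, 1.44-fold (1.16 to 1.79) lower in mdR-H460 and 1.49-fold (1.24 to 1.79) higher in ldR-H460 than in H460. In ldR-H460 it was 2.15-fold (1.76 to 2.64) higher than in mdR-H460. Among thinned G1 cells its ratio of mdR-H460 over H460 was 1.14 (0.602 to 2.16), the other direction with an interval that includes 1. DNAJC22 was also higher in ldR-H460 than in mdR-H460, by 1.59-fold (1.197 to 2.12), at 2.05 CPM in ldR-H460 against 1.29 CPM in mdR-H460, a call not kept with cells under 4000 detected genes or cells called G1 alone. Several members lay close together in the 3 cultures. DNAJB6, a strong inhibitor of protein aggregation, had 83.7 CPM in mdR-H460 and 76.5 CPM in ldR-H460, against 76.3 CPM in H460, and DNAJC2, the ribosome-bound J protein zuotin, had 101 CPM in mdR-H460 and 90.4 CPM in ldR-H460, against 85.7 CPM in H460. DNAJC8 had 104 CPM in mdR-H460 and 78.8 CPM in ldR-H460, against 104 CPM in H460. The other members of this class were at 2.22 to 82.9 CPM and within 1.5-fold of H460. HSPBAP1, whose protein binds HSP27 and which the symbol rule takes in, had 2.15 CPM in mdR-H460 and 0.662 CPM in ldR-H460, against 0.967 CPM in H460. It was 2.22-fold (1.64 to 3.03) higher in mdR-H460 than in H460, and 1.26-fold (0.855 to 1.85) higher without the DDIT3-high cells. In ldR-H460 over mdR-H460 its log2 ratio was -1.70, and -2.75 in cells thinned to 5000 UMIs.

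Within mdR-H460 and H460, the DDIT3-high cells were set against the other cells. They held 1.29% of all UMIs of mdR-H460 and 0.603% of those of H460, but far larger shares of a few members. They held 65.3% of the HSPA6 UMIs of mdR-H460 and 70.7% of those of H460. For HSPBAP1 the shares were 55.2% in mdR-H460 and 20.3% in H460. For HSPA1A they were 33.7% in mdR-H460 and 18.0% in H460, and for DNAJB2 28.0% in mdR-H460 and 16.3% in H460. Of the 76 measured members, 35 were higher in the DDIT3-high cells of mdR-H460 by 1.5-fold or more with an interval above 1 (all genes 26.4%) and 12 were lower (all genes 14.9%). In H460 34 were higher (all genes 19.9%) and 8 lower (all genes 13.7%). Abundant genes meet the interval rule more easily, and the shares of all genes were not matched to the members for level. The higher members numbered 29 in common, 82.9% of those of mdR-H460 and 85.3% of those of H460, and 6 of the lower ones were shared. The same overlap was not counted over all genes, so this sharing cannot be read as particular to the members. DDIT3 is no member and was used to choose the cells. The cells of a library are not replicates, and H460 held fewer than 50 DDIT3-high cells, so its values are a supplement added once that count was known.

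All 12 measured inducible members were higher in the DDIT3-high cells of mdR-H460, with a median of 8.98-fold, and 11 of 12 in those of H460, with a median of 12.02-fold. Over all genes the medians were 1.26-fold and 1.34-fold. For these medians a gene without a UMI in the DDIT3-high cells was set to the floor of 3 UMIs. That floor is 3.48 CPM in mdR-H460 and 7.51 CPM in H460. An undetected gene below that level in the other cells thus entered as higher. The medians of all genes may be raised by this, to an extent that was not tested. HSPA6 had 321 CPM in the DDIT3-high cells of mdR-H460, against 2.24 CPM in its other cells, 144-fold (117 to 177) higher. In H460 it had 2582 CPM in the DDIT3-high cells, against 6.49 CPM in the others, 398-fold (355 to 446) higher. The other members of the class had smaller ratios. HSPA1A was 38.8-fold (35.7 to 42.2) higher in mdR-H460 and 36.2-fold (32.9 to 39.7) higher in H460. HSPH1 was 12.4-fold (11.4 to 13.4) higher in mdR-H460 and 17.5-fold (15.8 to 19.4) higher in H460. DNAJB1 was 9.90-fold (8.65 to 11.3) higher in mdR-H460 and 13.9-fold (12.02 to 15.9) higher in H460. BAG3, which clears damaged proteins with HSPB8, was 9.32-fold (7.94 to 10.9) higher in mdR-H460 and 14.3-fold (11.8 to 17.1) higher in H460. HSP90AA1 was 1.67-fold (1.63 to 1.72) higher in mdR-H460 and 2.94-fold (2.83 to 3.06) higher in H460. The member that missed the line in H460 was HSPA4L, at 1.30-fold (0.594 to 2.48) higher there and 2.88-fold (2.03 to 3.98) higher in mdR-H460.

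Members outside the inducible class were split in these cells. DNAJB2 was 29.7-fold (24.6 to 35.7) higher in mdR-H460 and 32.1-fold (25.1 to 40.7) higher in H460. HSPBAP1 was 94.2-fold (66.9 to 133) higher in mdR-H460 and 42.0-fold (21.0 to 78.4) higher in H460. These ratios lie among those of the inducible class. Of the ER set, HSPA5 was 5.60-fold (5.25 to 5.97) higher in mdR-H460 and 5.99-fold (5.46 to 6.56) higher in H460. DNAJB9 was 2.89-fold (2.01 to 4.03) higher in mdR-H460 and 6.74-fold (4.51 to 9.70) higher in H460. HSPA13 was 3.69-fold (2.20 to 5.84) higher in mdR-H460 and 3.27-fold (1.49 to 6.27) higher in H460. Other ER members did not share this. HSP90B1 was 1.27-fold (1.12 to 1.45) lower in mdR-H460 and 1.05-fold (0.892 to 1.23) higher in H460. DNAJC10 was 1.94-fold (1.02 to 4.26) lower in mdR-H460 and 3.05-fold (1.31 to 9.41) lower in H460. HSPA5 and HSP90B1, which both hold the ER stress element printed above, thus differed in these cells. Of the mitochondrial set, HSPA9 was 5.53-fold (5.19 to 5.89) higher in mdR-H460 and 5.47-fold (4.92 to 6.06) higher in H460. HSPD1 was 1.53-fold (1.46 to 1.604) higher in mdR-H460 and 2.37-fold (2.23 to 2.52) higher in H460. DNAJC19 was 3.71-fold (2.49 to 5.79) lower in mdR-H460 and 3.89-fold (2.11 to 8.11) lower in H460. The chaperonin subunits, parts of a single complex, parted as well. CCT4 was 1.65-fold (1.51 to 1.80) higher in mdR-H460 and 2.17-fold (1.89 to 2.47) higher in H460. TCP1 was 1.62-fold (1.45 to 1.80) higher in mdR-H460 and 2.46-fold (2.12 to 2.85) higher in H460. CCT7 was 1.99-fold (1.69 to 2.37) lower in mdR-H460 and 2.14-fold (1.62 to 2.89) lower in H460. CCT6A was lower too, 2.59-fold (1.98 to 3.46) lower in mdR-H460 and 2.46-fold (1.68 to 3.77) lower in H460. DNAJC9, a histone chaperone, was 3.27-fold (2.14 to 5.29) lower in mdR-H460 and 3.70-fold (1.95 to 8.09) lower in H460. HSPB3 had 0 UMIs in the DDIT3-high cells of both cultures, where 3 UMIs, the limit a count of 0 allows, are 3.48 CPM in mdR-H460 and 7.51 CPM in H460. HSF1 was 1.35-fold (0.891 to 2.16) lower in mdR-H460 and 1.25-fold (0.679 to 2.61) lower in H460, with intervals that include 1.

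All 7 members with a 3-unit heat shock element were among the 32 matched members that were higher in the DDIT3-high cells of mdR-H460, and none among the other 36 matched and measured members. By start sites, 16.3% of 43 windows of the first set and 0 of 48 windows of the second held the element. The 2-unit element was in 41.9% of the windows of the first set and 12.5% of those of the second, against 13.5% of all windows. How many other genes with these elements were higher in the DDIT3-high cells was not counted. The split thus cannot be read as particular to the members, and a part of HSF1 in it was not tested. Markers of fibroblasts were counted in the same cells. The 9 fibroblast markers had 9 UMIs in the DDIT3-high cells of mdR-H460 and 5 in those of H460, which is 10.4 against 2.97 CPM in the other cells of mdR-H460, and 12.5 against 11.1 CPM in those of H460. KRT8, KRT18 and EPCAM together had 2673 CPM in the DDIT3-high cells, against 2377 CPM in the other cells of mdR-H460, and 699 CPM, against 1543 CPM, in H460. The part of these markers in the chaperone values was not tested.

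**Figure D3:**
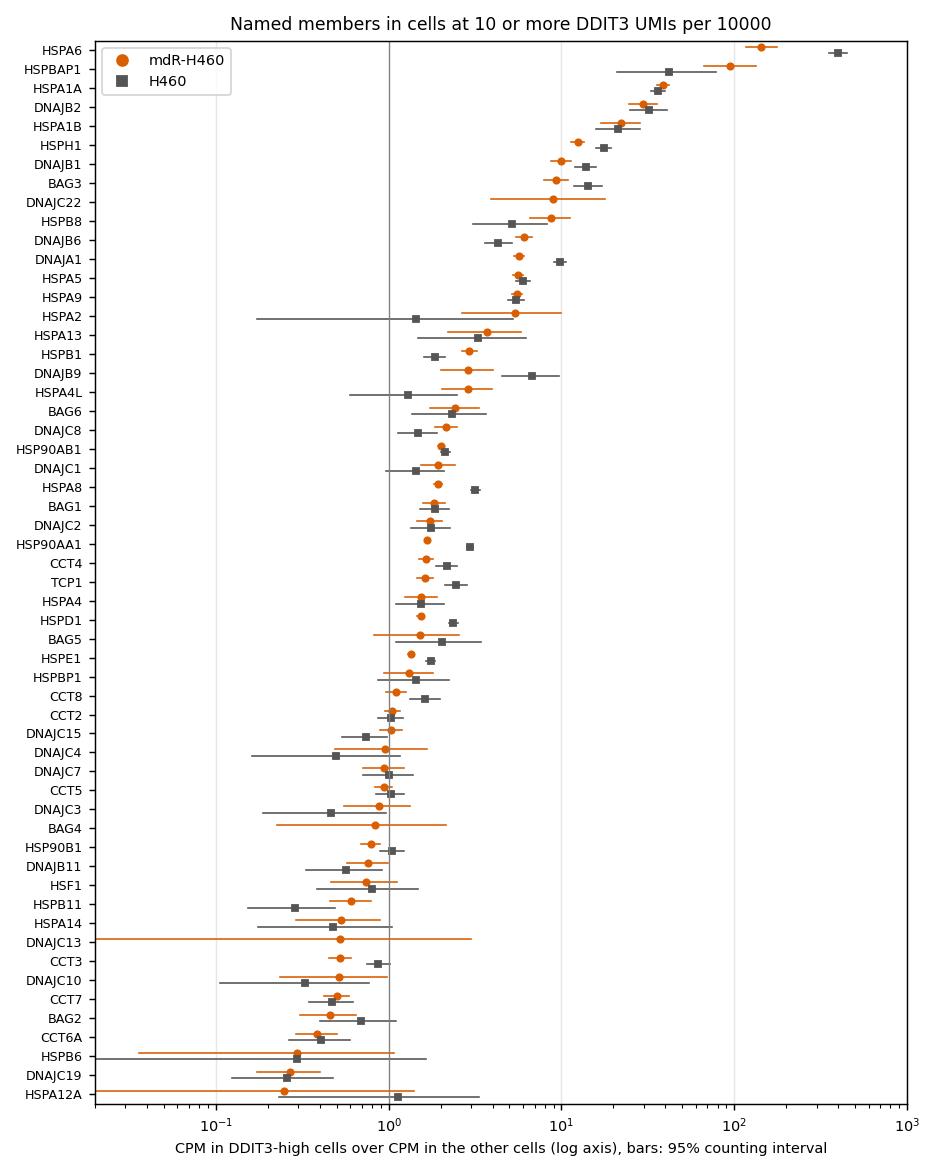
CPM of the named members in DDIT3-high cells divided by CPM in the other cells of the same library, on a log axis, for mdR-H460 (circles) and H460 (squares), with 95% counting intervals. Members are sorted by the ratio in mdR-H460, members without a UMI in the DDIT3-high cells of a library have no point for it, and ldR-H460 had no such cells; HSPA6, HSPBAP1, HSPA1A and DNAJB2 lead in both cultures.

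The DDIT3-high cells of mdR-H460 did not have the levels of those of H460 for every member. HSPA6 had 321 CPM in those of mdR-H460, against 2582 CPM in those of H460, 8.04-fold (7.03 to 9.21) lower, on 277 and 1031 UMIs. DDIT3, by which the cells were chosen, had 4467 CPM in those of mdR-H460 against 4734 CPM in those of H460. DNAJB1 had 293 CPM in those of mdR-H460 against 551 CPM in those of H460. HSPA8 had 1629.8 CPM in those of mdR-H460 against 2382 CPM in those of H460. Other members were level or higher. HSPA5 had 1162 CPM in those of mdR-H460 against 1219.8 CPM in those of H460, and HSPA9 was 1.29-fold (1.15 to 1.46) higher in mdR-H460. HSPBAP1 was 2.81-fold (1.55 to 5.52) higher, on 79 and 13 UMIs.

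HSPA6 was a gene of very few cells. In mdR-H460 its 424 UMIs came from 46 cells, 10 of which held 85.1%, and the highest cell had 124. In ldR-H460 8 cells had 1 UMI each. In H460 1458 UMIs came from 96 cells, 10 of which held 90.0%, and the highest cell had 443. Most DDIT3-high cells had none. An HSPA6 UMI was seen in 15 of 120 DDIT3-high cells of mdR-H460 and 14 of 42 of H460. The HSPA6 levels of mdR-H460 and H460 thus rest on a few cells per library. HSPA1A was spread wider, over 995 cells of mdR-H460 and 1078 of ldR-H460, against 1444 of H460, with highest cells of 152, 6 and 114 UMIs. Among cells thinned to 5000 UMIs, 9.46% (8.56 to 10.4%) had an HSPA1A UMI in mdR-H460 and 9.69% (8.84 to 10.6%) in ldR-H460, against 14.9% (13.7 to 16.0%) in H460. Unthinned, the shares were 19.3% in mdR-H460 and 21.8% in ldR-H460, against 31.9% in H460. The uppermost 1% of thinned cells held 61.1% of the HSPA1A UMIs in mdR-H460 and 18.98% in ldR-H460, against 38.6% in H460. For HSP90AA1 they held 4.34% in mdR-H460 and 3.52% in ldR-H460, against 4.31% in H460, and 99.3% of mdR-H460, 98.8% of ldR-H460 and 99.04% of H460 cells had a UMI.

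Members differed in the DDIT3 level at which they were high. Cells with 5000 or more UMIs were sorted into those with no DDIT3 UMI, under 2, 2 to under 5, 5 to under 10, and 10 or more DDIT3 UMIs per 10000, which gave 3006, 749, 42, 11 and 72 cells of mdR-H460. HSPA1A had 19.6, 31.2, 232, 575 and 995 CPM over these classes in mdR-H460. It was thus already high at 2 to under 5, as it was in H460, with 455 CPM in 26 cells, and less so in ldR-H460, with 43.6 CPM in 15 cells. HSPH1 had 60.8, 68.9, 85.3, 258 and 803 CPM in mdR-H460, so most of its difference lay in the upper classes. HSPA5 had 196, 229, 442, 467 and 1196 CPM in mdR-H460, and at 2 to under 5 it had 386 CPM in ldR-H460 and 452 CPM in H460. CCT7 had 329, 344 and 276 CPM in the lower 3 classes of mdR-H460 and 163 CPM at 10 or more. HSPA6 had 0.229, 1.28 and 239 CPM in the lower 3 classes of mdR-H460, 3 UMIs in the 11 cells at 5 to under 10, and 336 CPM at 10 or more. The classes at 2 to 10 held few cells, 42 and 11 in mdR-H460, so their values rest on few cells.

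**Figure D4:**
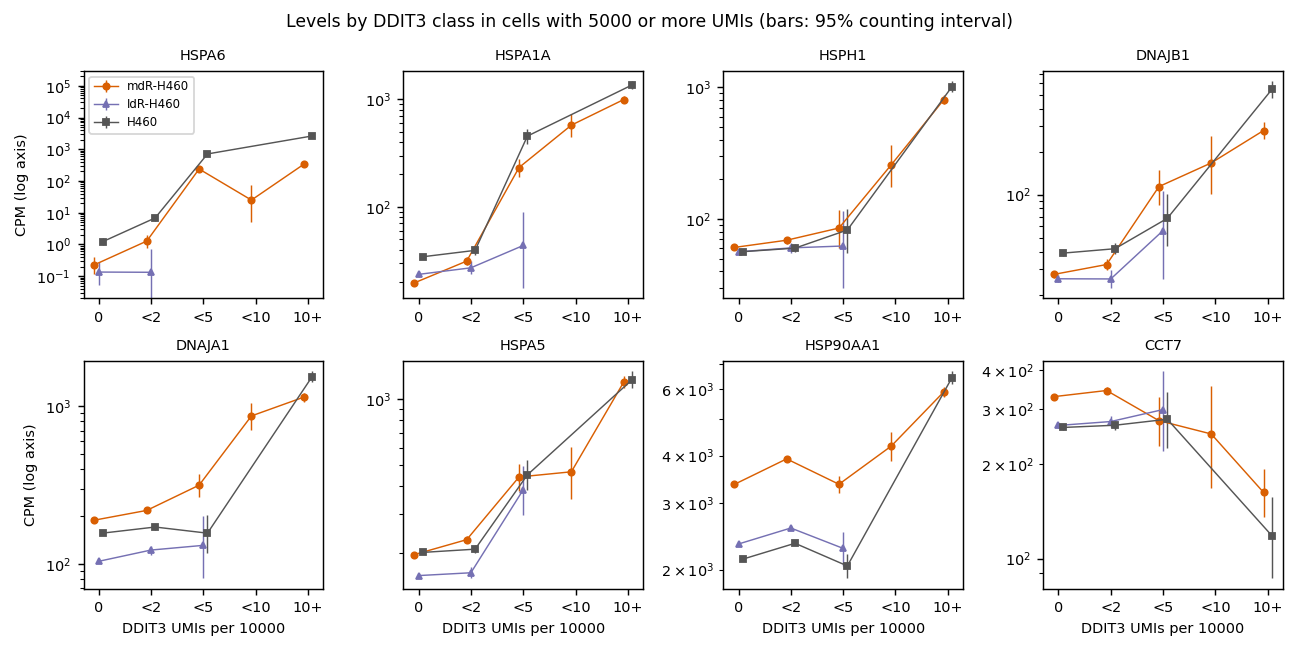
CPM of 8 members (log axis) in cells with 5000 or more UMIs, sorted by DDIT3 UMIs per 10000 from none to 10 or more, in mdR-H460, ldR-H460 and H460; bars are 95% counting intervals, and classes under 10 cells or without a UMI are not drawn. HSPA1A is 19.6 CPM in mdR-H460 cells without DDIT3 and 995 CPM at 10 or more, whereas CCT7 is 329 and 163 CPM.

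Several members varied with the called cell cycle phase, and the cultures differed in their phase make-up. Cells called G1, S and G2/M from thinned counts made up 36.1%, 29.7% and 34.1% of mdR-H460 and 21.6%, 38.2% and 40.2% of ldR-H460, against 37.8%, 40.5% and 21.7% of H460. HSP90AA1 had 2000.1, 3615 and 3812 CPM in G1, S and G2/M of mdR-H460 and 1472, 2439.7 and 2368 CPM in ldR-H460, against 1574, 2142 and 2618 CPM in H460. It was lowest in G1 in each culture. Phase values here are from cells thinned to 5000 UMIs, which weights cells alike, and so differ somewhat from the G1 values at full depth given above. The HSP90AA1 ratio of mdR-H460 over H460 was 1.27 in G1, 1.69 in S and 1.46 in G2/M, so mdR-H460 was the higher culture in each phase. CCT8 had mdR-H460 over H460 ratios of 1.30, 1.67 and 1.52 in the same phases. CCT5 had 233, 369 and 382 CPM in mdR-H460 and 199, 259 and 237 CPM in ldR-H460, against 228, 291 and 288 CPM in H460. HSPE1 had 1259.8, 1978 and 2115 CPM in mdR-H460. DNAJC9 varied most with phase among the members drawn, with 22.7, 94.8 and 87.7 CPM in mdR-H460 and 39.0, 89.9 and 75.3 CPM in ldR-H460, against 29.1, 114 and 99.8 CPM in H460. HSPA14 was also lower in G1, at 13.8, 34.1 and 34.0 CPM in mdR-H460.

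HSPA1A and HSPA5 were highest in G1 in mdR-H460 and H460. HSPA1A had 79.7, 37.4 and 20.1 CPM in G1, S and G2/M of mdR-H460 and 12.1, 22.2 and 26.3 CPM in ldR-H460, against 70.1, 38.7 and 39.0 CPM in H460. Of the DDIT3-high cells deep enough to be called, 61 of 72 in mdR-H460 and 29 of 32 in H460 were called G1, a call that also takes in cells in which both phase lists are low. Without the DDIT3-high cells, HSPA1A in G1 was at 32.4 CPM in mdR-H460 and 12.1 CPM in ldR-H460, against 43.5 CPM in H460, so G1 cells of ldR-H460 were lowest in that case too. In S and G2/M without those cells it was at 27.3 and 19.9 CPM in mdR-H460, against 37.2 CPM in S of H460, where G2/M was slightly lower still. The gap between G1 and the other phases was much smaller without the DDIT3-high cells in both cultures. HSPA5 had 275, 189.6 and 187 CPM in mdR-H460 and 157, 170.2 and 152 CPM in ldR-H460, against 291, 199 and 148 CPM in H460. The ER gene was highest in G1 of mdR-H460 and H460, also without the DDIT3-high cells (229.6 CPM in mdR-H460 and 267 CPM in H460). Other inducible members differed in their order. HSPB1 had 210, 169 and 150 CPM in G1, S and G2/M of mdR-H460, against 308, 244 and 237 CPM in H460, highest in G1. HSPA1B was also highest in G1 of both. DNAJB1 was highest in G1 of mdR-H460, at 41.8, 32.6 and 35.0 CPM, and lowest in G1 of H460, at 39.7, 46.4 and 45.2 CPM. Without the DDIT3-high cells DNAJB1 had 31.0, 31.2 and 34.7 CPM in mdR-H460. HSPH1 had 57.6, 62.0 and 82.8 CPM in G1, S and G2/M of H460, lowest in G1. DNAJA1 had 173, 202 and 208 CPM in mdR-H460, against 135, 169 and 192 CPM in H460, also lowest in G1. DNAJA1 was lower in ldR-H460 than in H460 in each phase, at ratios of 0.483, 0.602 and 0.618 in G1, S and G2/M.

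**Figure D5:**
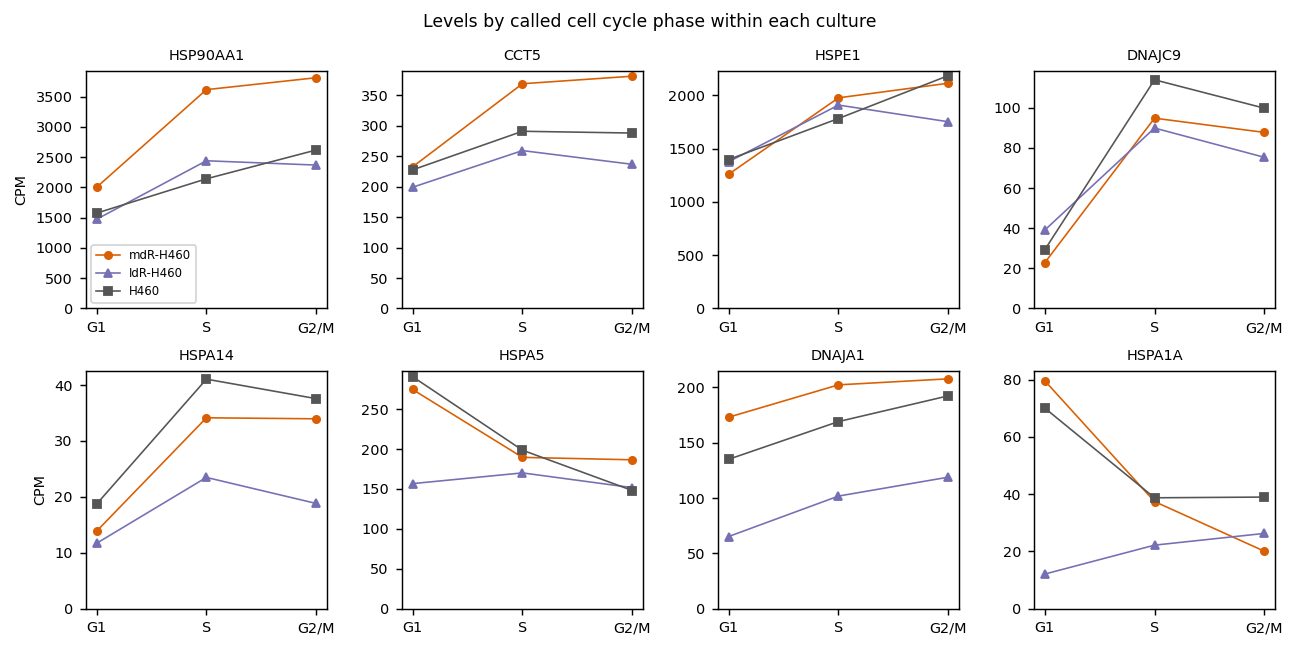
CPM of 8 members in cells called G1, S and G2/M within mdR-H460, ldR-H460 and H460, from cells thinned to 5000 UMIs, 1 library per culture. HSP90AA1, CCT5, HSPE1, DNAJC9 and HSPA14 are lowest in G1 in each culture, while HSPA5 and HSPA1A are highest in G1 in mdR-H460 and H460 but not in ldR-H460.

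Across single cells, partners went together to different degrees. As a description over thinned cells (3880 in mdR-H460, 4521 in ldR-H460 and 3850 in H460), with cells of a library sharing its preparation and sparse counts limiting the values, the correlation of HSP90AA1 with HSP90AB1 was 0.57 in mdR-H460 and 0.46 in ldR-H460, against 0.45 in H460. For HSPD1 with HSPE1, the pair with head-to-head starts, it was 0.41 in mdR-H460 and 0.29 in ldR-H460, against 0.33 in H460. HSPA1A with HSPA6 gave 0.54 in mdR-H460 and 0.43 in H460, and 0.30 in mdR-H460 and 0.25 in H460 without the DDIT3-high cells. These values rest on few cells, as 27 of 3880 thinned cells of mdR-H460 and 39 of 3850 of H460 had an HSPA6 UMI. In ldR-H460 4 of 4521 thinned cells had one, too few for a value. DNAJA1 with the summed other inducible members gave 0.37 in mdR-H460 and 0.25 in ldR-H460, against 0.28 in H460.

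Genes that work with the members, listed by function, gave the following counts at 1.5-fold. Of all measured genes, 6.66% were higher and 22.2% lower in mdR-H460 against H460, and 11.6% higher and 22.1% lower in ldR-H460. Of 13 measured co-chaperones of HSP90 and HSP70, 3 were higher and 1 lower in mdR-H460 against H460 (median log2 ratio 0.35), and 1 was higher and 1 lower in ldR-H460 (median -0.01). AHSA1, which speeds the HSP90 ATPase, had 185 CPM in mdR-H460 and 114 CPM in ldR-H460, against 118 CPM in H460, and PTGES3, the HSP90 co-chaperone p23, had 505 CPM in mdR-H460 and 411 CPM in ldR-H460, against 321 CPM in H460. Of 6 prefoldin subunits, which hand actin and tubulin to TRiC/CCT, 1 was higher and 0 lower in mdR-H460, and 0 were higher or lower in ldR-H460 (medians -0.06 and -0.32). Of 15 other ER folding genes, 0 were higher or lower in mdR-H460 and 0 higher and 1 lower in ldR-H460 (medians 0.05 and -0.19). PDIA3, a disulfide isomerase, was the one, with 203 CPM in mdR-H460 and 117 CPM in ldR-H460, against 203 CPM in H460. Of 11 mitochondrial folding and proteolysis genes, 1 was higher and 1 lower in mdR-H460, and 2 higher and 1 lower in ldR-H460 (medians 0.11 and 0.11). Among 7 heat shock regulators and other cytosolic chaperones, 0 were higher and 2 lower in mdR-H460 and 0 higher and 3 lower in ldR-H460. CRYAB, a small heat shock protein outside the symbol rule, had 4.88 CPM in mdR-H460 and 9.19 CPM in ldR-H460, against 62.4 CPM in H460.

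The list of 9 genes of amino acid stress and ATF4 output holds DDIT3, whose high level in the DDIT3-high cells is fixed by their choice. The other 8 were higher there too, from 3.39-fold (ATF5) to 119-fold (SESN2) in mdR-H460 and from 2.86-fold (ATF5) to 200.1-fold (CHAC1) in H460. SESN2, a stress-induced inhibitor of mTORC1, was 119-fold (102 to 138) higher in mdR-H460 and 116-fold (96.2 to 140.2) higher in H460. Of the 13 co-chaperones of HSP90 and HSP70, 4 were higher and 2 lower in the DDIT3-high cells of mdR-H460 (median 1.00-fold). In those of H460, 5 were higher and 1 lower (median 1.39-fold). CHORDC1, an HSP90 partner, was 5.64-fold (5.09 to 6.23) higher in mdR-H460 and 7.80-fold (6.76 to 8.97) higher in H460. STUB1 of the same list was 6.09-fold lower in mdR-H460 and 4.75-fold lower in H460. Of the 7 heat shock regulators and other cytosolic chaperones, 4 were higher and 0 lower in mdR-H460, and 5 higher and 1 lower in H460. Of the 15 other ER folding genes, 4 were higher and 5 lower in mdR-H460, and 4 higher and 3 lower in H460. Of all genes, 26.4% were higher and 14.9% lower in these cells of mdR-H460, and 19.9% higher and 13.7% lower in H460. HERPUD1 and XBP1, which belong to the ER stress response, were 11.2-fold (10.2 to 12.4) higher and 11.99-fold (10.8 to 13.3) higher in mdR-H460, whereas SDF2L1 and MANF, which are also known to respond to ER stress, were 4.76-fold lower and 1.88-fold lower. Over the whole libraries 4 of these 9 amino acid stress genes were higher and 0 lower in mdR-H460 against H460, or 2 and 0 without the DDIT3-high cells, while 3 were higher and 6 lower in ldR-H460, or 3 and 3. The shares of all genes were 6.66% higher and 22.2% lower in mdR-H460, or 6.43% and 22.9% without these cells. In ldR-H460 they were 11.6% higher and 22.1% lower, or 11.8% and 21.7%.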

How the data were processed

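Three-prime single-cell libraries of mdR-H460, ldR-H460 and H460 (1 each) were made with v2 chemistry, per the labels' protocols. The deposited files hold UMI counts per gene and cell. Per the submitters' processing notes, Cell Ranger 3.0.2, Seurat 3.0 and the GRCh38 build were involved. Which gene annotation was counted is not stated in these sources. All deposited cells were kept and no doublet caller was run. Counts were summed per library and scaled to CPM (60468481 to 66624830 UMIs per library). Intervals are exact Poisson (levels) or exact binomial (ratios, shares), at 95%, and cover counting error only. A count of 0 was set to a floor of 3 UMIs in ratios. A gene was measured at 1 CPM or more in any library and called at 1.5-fold, and calls in DDIT3-high cells also needed an interval that excludes 1. With 1 library per culture no test was run. For shares of cells, phases and correlations, cells were thinned to 5000 UMIs, which left out 1271 shallower cells of mdR-H460 and 435 of ldR-H460, against 681 of H460. Phases were scored with scanpy 1.11.5. Other software was Python 3.11.15, numpy 2.4.6, pandas 2.3.3, scipy 1.17.1, matplotlib 3.10.9 and R 4.3.3. edgeR 4.0.16 and DESeq2 1.42.0 were used for scaling factors alone. The interval code was tested on simulated counts. Gene positions are GENCODE v29 (83 members had one), and start regions are RefSeq, GRCh38.p14.

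The members and lists were chosen with earlier results of these data known. Values were given singly for measured HSPA, large HSP, CCT, BAG, HSPB1, HSPB8 and HSF1 members, for the 4 highest and the 4 most different measured members of each other class, and for members with 30% or more of a library's UMIs in DDIT3-high cells, and other members by range and count. The DDIT3 classes, the phases, the comparison among DDIT3-high cells, the H460 contrast below the minimum of 50 cells and the use of all start sites were added after the data were seen. Alternatives were other scalings, filters and cell selections.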

Additional observations from a re-analysis of the deposited data

Results flagged for a closer look

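Members were singled out where 1 derivative was at least 1.2-fold above H460 and the other at least 1.2-fold below it, each culture being 1 library, so the difference between the derivatives was not tested. DNAJA1 was at 1.24 times its H460 level in mdR-H460 and 0.630 times in ldR-H460. DNAJB9 was at 1.28 times in mdR-H460 and 0.671 times in ldR-H460, and CCT2 at 1.21 times in mdR-H460 and 0.816 times in ldR-H460. DNAJC13 went the other way, at 0.694 times its H460 level in mdR-H460 and 1.49 times in ldR-H460. In cells called G1 and thinned to 5000 UMIs, some of these contrasts were not seen: DNAJB9 was at 1.03 times its H460 level in ldR-H460, CCT2 at 1.04 times in mdR-H460, and DNAJC13 at 1.14 times (0.602 to 2.16) in mdR-H460. With TMM scaling CCT2 in ldR-H460 over H460 had a log2 ratio of -0.18, inside the 1.2-fold line.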

How the results depend on the processing

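No paired analysis was possible because each group has 1 library, and leaving out a replicate would leave none. Among 76 measured members, 4 were higher and 6 lower in mdR-H460 over H460. TMM and DESeq2 scaling each gave 7 higher and 3 lower, and a minimum of 10 CPM gave 2 higher. In ldR-H460 over H460, 1 was higher and 12 lower. The number higher was 3 with TMM scaling, 2 with DESeq2 scaling, 2 with totals without mitochondrial and ribosomal protein UMIs, 2 with equal weight per cell, 2 with cells thinned to 5000 UMIs, 2 with cells under 4000 detected genes, 3 with cells called G1, 4 with no filter and 0 at 10 CPM. The number lower was 7 with TMM, 7 with DESeq2 and 19 with cells called G1. In ldR-H460 over mdR-H460, with 4 higher and 8 lower, 10 CPM gave 0 higher and cells called G1 gave 17 lower. For DDIT3-high cells of H460, with 8 lower, equal weight per cell judged by fold alone gave 20. For those of mdR-H460, with 35 higher and 12 lower, the alternatives gave 34 to 37 higher and 10 to 17 lower. No called member changed sign. Over 8 alternatives, 3 of the 10 calls in mdR-H460 over H460, 7 of 13 in ldR-H460 over H460 and 7 of 12 in ldR-H460 over mdR-H460 were kept in each. The cause of these shifts was not tested, except that scaling factors move all ratios of a comparison alike. Depth limits members near 1 CPM most, such as HSPBAP1 and HSPB3 in H460.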
